A study of Homo sapiens with 54 samples.

Results

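The genes RN7SL1, RN7SL2 and BCYRN1 were examined in chromatin immunoprecipitation data (ChIP-seq) of T47D cells. RN7SL1 and RN7SL2 encode 7SL RNA, and BCYRN1 encodes BC200 RNA. The 3 genes were chosen by name from a RefSeq table of 59439 genes on chromosomes 1 to 22, X and Y, and all 3 were found. A peak region was assigned to a gene when it lay within 200 bp of the gene's span, and regions within 5 kb were described as its surroundings. T47D is an established human breast cancer line that carries the estrogen and progesterone receptors. The cells were kept in medium with serum and insulin and received ethanol, called vehicle here, or the synthetic progestin R5020 for 1 h. The labels used here give no dose of R5020, and a single line was studied. The 8 antibodies were directed at the progesterone receptor (PR), at Brf1 and Maf1, an initiation factor and a repressor of RNA polymerase III, at POLR3A, POLR3C, POLR3G and POLR3GL, which are polymerase subunits, and at histone H3 acetylated at lysine 27 (H3K27Ac), with 3 libraries for each antibody and treatment.

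7SL RNA is the scaffold of the signal recognition particle, which recognises signal sequences on nascent proteins and brings the ribosome to the endoplasmic reticulum. Alu repeats descend from 7SL RNA, and BC200 RNA in turn descends from an Alu element. BC200 is a regulator of translation best known from neurons and is also found in tumours, breast tumours included. Both kinds of gene are transcribed by RNA polymerase III from promoters that lie partly inside the gene. There the factor TFIIIC binds first and places TFIIIB, of which Brf1 is a subunit, just before the start site. TFIIIB then recruits the polymerase, and Maf1 represses the polymerase when cells stop growing.

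Each antibody and treatment was represented by 1 deposited list of peak regions, so there was no spread between replicates and no test of a difference between treatments. The lists held between 370 regions (Brf1, vehicle) and 173129 regions (PR, R5020), and the sequencing depth behind them is unknown. A region's fold is the authors' ratio of signal at its highest point, the summit, over background. Each fold was read against the other regions of its own list, and the vehicle and R5020 values are set side by side. Lists of the same antibody differed in length and median fold. For Brf1 the median was 18.68 among 370 vehicle regions and 4.981 among 1173 R5020 regions. A percentile depends on the make-up of its list and does not measure a change between treatments. The treatment tag says ethanol for 4 of the libraries titled R5020. Of these, 2 are POLR3C libraries (replicates 1 and 2), and replicate 1 of POLR3G and of POLR3GL are the others, so values of these antibodies after R5020 rest on the titles. The luminal character of the cells was visible in the acetylation lists. H3K27Ac lay within 1 kb of an end of 10 of 10 luminal breast markers with vehicle and of 9 of 10 with R5020, where TFF1 had none. The luminal folds ran from 3.15 (TFF1) to 30.6 (XBP1) with vehicle and from 4.99 (ESR1) to 34.2 (XBP1) with R5020. Among 8 markers of other cells H3K27Ac was found at 2 and 3. With vehicle these were CD3E (fold 3.71) and COL1A1 (10.9), and with R5020 VIM (2.43), PECAM1 (2.73) and COL1A1 (6.26). Vehicle CD3E and COL1A1 in both lists thus lay within the luminal range of folds. KRT5, KRT14, PTPRC and ALB had no H3K27Ac region in either list. The share over all protein-coding genes was 68.1% with vehicle and 69.4% with R5020.

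RN7SL1 occupies 299 bp on chromosome 14, from 49586580 to 49586878 of GRCh38, within the span of RPS29, a gene for a protein of the small ribosomal subunit. RN7SL2 is equally long and lies 276 kb further along the same chromosome, from 49862551 to 49862849, within the span of the long noncoding RNA gene LOC105378179. BCYRN1 occupies 200 bp of chromosome 2, from 47335315 to 47335514, within EPCAM-DT, a noncoding transcript named for its neighbour EPCAM. No other gene lay within 5 kb of the 3. The gene table gives neither strand nor exons, so the ends of a gene are called lower and higher by their coordinates and intron or exon positions are not stated. RN7SL1 and RN7SL2 are near-identical copies in the genome. How reads that match both were placed is not given in the sources used here, so part of the signal at one may come from the other.

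The promoter table of RefSeq (GRCh38.p14) held windows for the 3 host genes, from 250 bases before to 50 after the start. The windows are shown because they are annotated promoters of the host genes, whose own regions can be set beside those of the 7SL and BC200 genes. Each is read on the minus strand, and capitals mark CCCGCC or its reverse complement, the core of a GC box.

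RPS29 (RN7SL1), chr14:49598661-49598960: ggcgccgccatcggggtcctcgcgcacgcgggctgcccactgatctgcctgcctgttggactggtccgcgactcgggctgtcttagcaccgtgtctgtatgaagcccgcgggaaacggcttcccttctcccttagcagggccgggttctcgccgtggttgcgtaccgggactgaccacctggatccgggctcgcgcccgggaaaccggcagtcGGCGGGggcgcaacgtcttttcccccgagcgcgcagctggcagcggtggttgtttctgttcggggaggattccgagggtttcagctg
LOC105378179 (RN7SL2), chr14:49868121-49868420: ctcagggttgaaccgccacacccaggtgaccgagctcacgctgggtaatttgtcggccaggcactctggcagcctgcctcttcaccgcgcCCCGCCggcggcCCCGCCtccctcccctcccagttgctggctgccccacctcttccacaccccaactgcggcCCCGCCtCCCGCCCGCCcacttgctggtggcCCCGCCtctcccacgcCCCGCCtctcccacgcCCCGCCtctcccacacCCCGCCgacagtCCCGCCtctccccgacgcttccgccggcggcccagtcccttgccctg
EPCAM-DT (BCYRN1), chr2:47345025-47345324: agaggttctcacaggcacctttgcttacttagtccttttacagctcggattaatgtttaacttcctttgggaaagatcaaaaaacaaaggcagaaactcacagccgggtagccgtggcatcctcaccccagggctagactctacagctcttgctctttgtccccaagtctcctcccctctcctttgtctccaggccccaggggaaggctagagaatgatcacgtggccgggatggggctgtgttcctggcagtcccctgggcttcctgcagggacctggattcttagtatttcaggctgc

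The LOC105378179 window held 10 copies of CCCGCC, a pair of them overlapping, and 0.231% of the 35116 promoter windows held at least as many. The RPS29 window held 1 copy and the EPCAM-DT window 0. CCCGCC was counted after the sequence had been seen. The windows were searched on both strands for TGACGTCA (the cAMP response element), TATAAA (the core promoter motif), AGAACA (the single arm of steroid receptor elements), ACANNNTGT (the core of the full element), GGTTCGA (the core of the B box) and TGGCNNAGT (the box A of tRNA genes). None was found in the 3 windows. These motifs occurred in 1.85%, 11.5%, 14.8%, 5.37%, 0.86% and 3.43% of all windows.

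POLR3A, the largest subunit of the polymerase, had a region over all 3 genes in both treatments. Over all RefSeq genes the share with a POLR3A region within 200 bp was 1.23% with vehicle and 1.31% with R5020, and within 5 kb it was 1.63% and 1.79%. At RN7SL1 the region had a fold of 45.2 with vehicle, from 49586339 to 49587136, and of 58.9 with R5020, from 49586372 to 49587135. It ranked above 82.7% of the 688 vehicle regions and above 89.8% of the 1047 R5020 regions. The RN7SL2 region spanned 49862150 to 49863106 with vehicle (fold 19.5, above 60.3% of regions) and 49862236 to 49863049 with R5020 (fold 41.1, above 82.6%). BCYRN1 lay under a region from 47335178 to 47335731 with vehicle (fold 35.9, above 73.1%) and from 47335196 to 47335666 with R5020 (fold 23.4, above 75.4%). RN7SL1 thus had the highest POLR3A fold of the 3 in both lists, while RN7SL2 was lowest with vehicle and BCYRN1 lowest with R5020. No replicate error was available for this order. The median fold of all POLR3A regions was 10.92 with vehicle and 4.856 with R5020, so percentiles of these lists are not on a common scale. At BCYRN1 the fold was lower with R5020 while the percentile was higher.

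**Figure D1:**
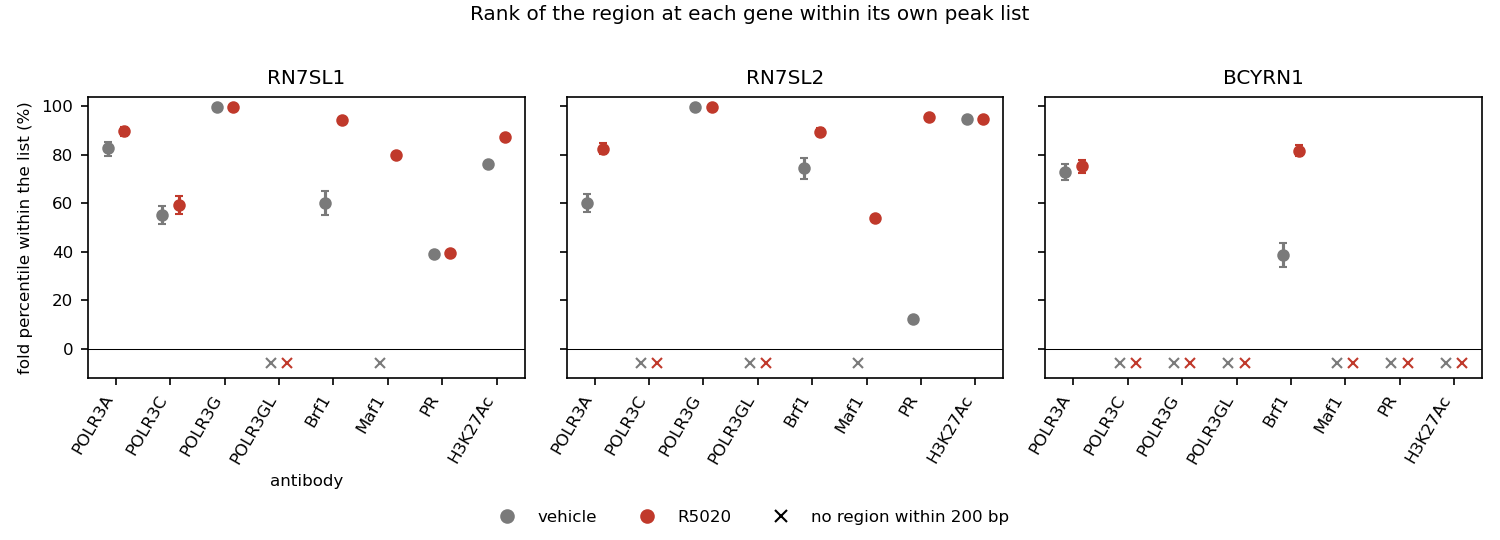
Fold percentile of the region at each gene within its own peak list (y axis, percent of the list's regions with a lower fold) for the 8 antibodies (x axis), with vehicle in grey and R5020 in red. Bars are 95% Wilson intervals for counting error, which narrow as a list grows longer and do not measure spread between replicates. Lists differ in length and median fold, so a shift of percentile between treatments does not measure a change at the gene. Crosses below 0 mark lists with no region within 200 bp. All 3 genes have POLR3A and Brf1 points in both treatments, and RN7SL1 and RN7SL2 have Maf1 points with R5020 alone.

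The POLR3A folds lay within the range of those at tRNA genes. Of 360 tRNA genes with a vehicle POLR3A region, 222 had a lower fold than RN7SL1, 155 a lower fold than BCYRN1 and 89 a lower fold than RN7SL2. In the R5020 list these numbers were 239, 95 and 154 of 359. The median fold of tRNA genes was 39.1 with vehicle and 46 with R5020. For 19 other polymerase III genes on the list used here, 17 had POLR3A in each treatment, with median folds of 48 and 65.9. The 2 without were RNU6V and VTRNA2-1. Neither copy of the 7SL gene nor BCYRN1 reached the medians of these 17 genes in either list.

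Brf1 was likewise found at all 3 genes in both treatments, against 0.85% of all genes with vehicle and 1.46% with R5020 (within 5 kb, 1.12% and 2.04%). RN7SL2 lay under a vehicle region of fold 33, from 49862407 to 49863132, and an R5020 region of fold 59.7, from 49862511 to 49863204. RN7SL1 lay under a vehicle region of fold 23.8, from 49586280 to 49587008, and an R5020 region of fold 74.4, from 49586319 to 49587020. BCYRN1 had the lowest Brf1 folds of the 3, with 9.62 in the region from 47335178 to 47335438 of the vehicle list and 22.8 in the region from 47335163 to 47335476 of the R5020 list. Among 300 tRNA genes with vehicle Brf1, 51 had a lower fold than BCYRN1, 112 a lower fold than RN7SL1 and 172 a lower fold than RN7SL2. Among 309 tRNA genes with R5020 Brf1 the numbers were 70, 228 and 154. The median Brf1 fold of tRNA genes with a region was 29.2 with vehicle and 59.9 with R5020. At the other polymerase III genes with Brf1 it was 26.4 and 57.3. Higher folds in the R5020 list were thus not particular to the 3 genes. RN7SL2 had the highest Brf1 fold of the 3 in the vehicle list and RN7SL1 in the R5020 list, with no replicate error for either order. A second, weaker Brf1 region appeared beside RN7SL2 with R5020, from 49862126 to 49862365 (fold 5.29).

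**Figure D2:**
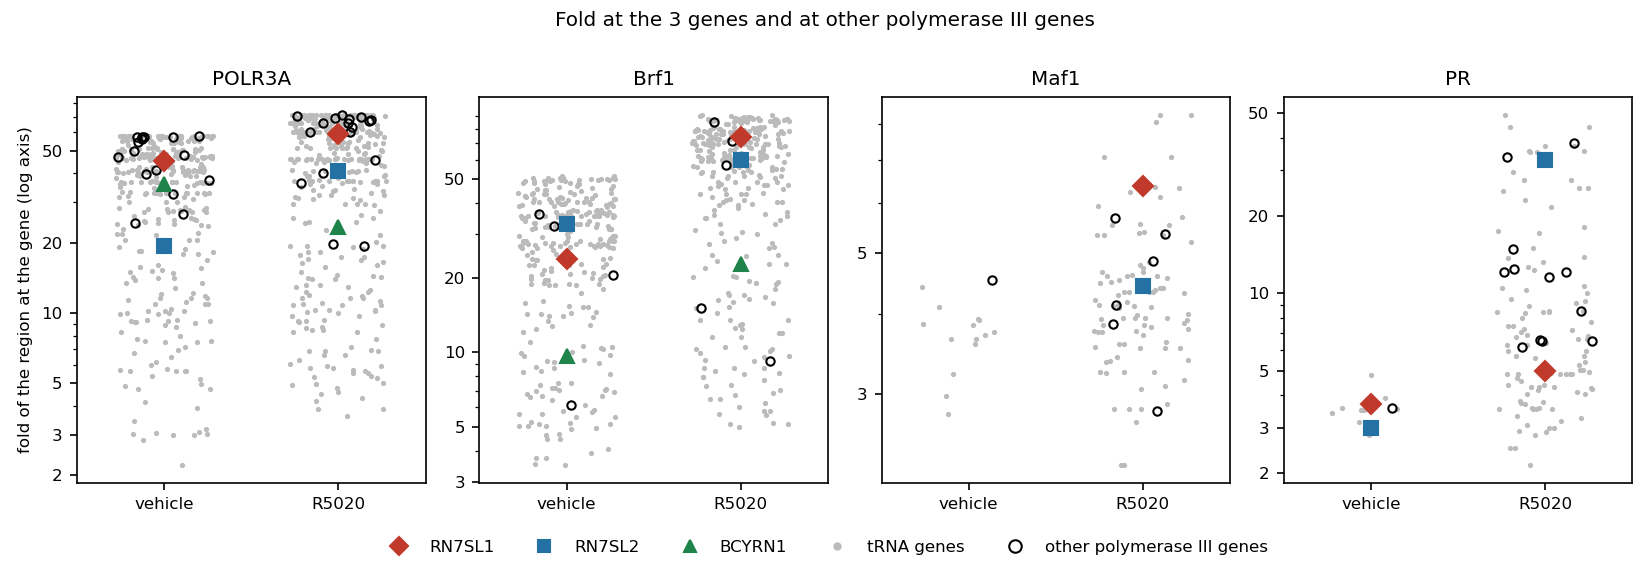
Fold of the region at each gene (y axis, log scale) in the vehicle and R5020 lists of POLR3A, Brf1, Maf1 and PR. Grey points are tRNA genes, open circles other polymerase III genes and coloured markers the 3 genes. The folds of RN7SL1, RN7SL2 and BCYRN1 lie within the range of tRNA genes in all 7 lists of this plot that hold one of them, and RN7SL2 stands near the top for R5020 PR at 33.

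Among the 19 other polymerase III genes, Brf1 was found at few. Brf1 was found at 4 of the 19 other genes with vehicle: VTRNA1-1, VTRNA1-2 and VTRNA1-3, which encode vault RNAs, and TRU-TCA1-1, the selenocysteine tRNA gene. With R5020 a region at RNU6-1, a U6 small nuclear RNA gene, made 5. RN7SK, RMRP, RPPH1, RNU6ATAC, the other U6 genes, VTRNA2-1 and the Y RNA genes had none in either list. Of these, RNU6V and VTRNA2-1 had no POLR3A region either. In vertebrates the 7SK, U6 and similar genes are known to use the related factor BRF2 at promoters upstream of the gene. BRF2 was not among the antibodies, so its use at these genes was not tested.

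The summits of POLR3A and Brf1 lay at different places in each gene. The summit of the Brf1 region over the gene lay just outside one end of every gene. At RN7SL1 it was 10 bp below the lower end with vehicle, at 49586570, and 1 bp below it with R5020, at 49586579. At RN7SL2 it lay beyond the opposite, higher end, by 1 bp with vehicle and 5 bp with R5020. At BCYRN1 it was 16 bp below the lower end with vehicle and 12 bp with R5020. Between treatments the Brf1 summit moved by 9 bp at RN7SL1 and by 4 bp at each of the other genes, and the POLR3A summit by 90 bp at RN7SL1, 63 bp at RN7SL2 and 68 bp at BCYRN1. The POLR3A summit lay inside the gene in all 6 cases, between 34 and 145 bp from the nearer end. It was 92 to 155 bp from the Brf1 summit with vehicle and 39 to 236 bp from it with R5020. Of tRNA genes with the region in question, the POLR3A summit was inside the gene at 81.7% with vehicle and 81.3% with R5020, and the Brf1 summit at 10.3% and 18.4%. A POLR3A summit inside and a Brf1 summit outside were thus the more frequent positions at tRNA genes as well. At the other polymerase III genes the POLR3A summit was inside at 94.1% in both lists. The Brf1 summit was inside at 1 of 4 of them with vehicle and 2 of 5 with R5020. These shares were not matched for gene length.

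**Figure D3:**
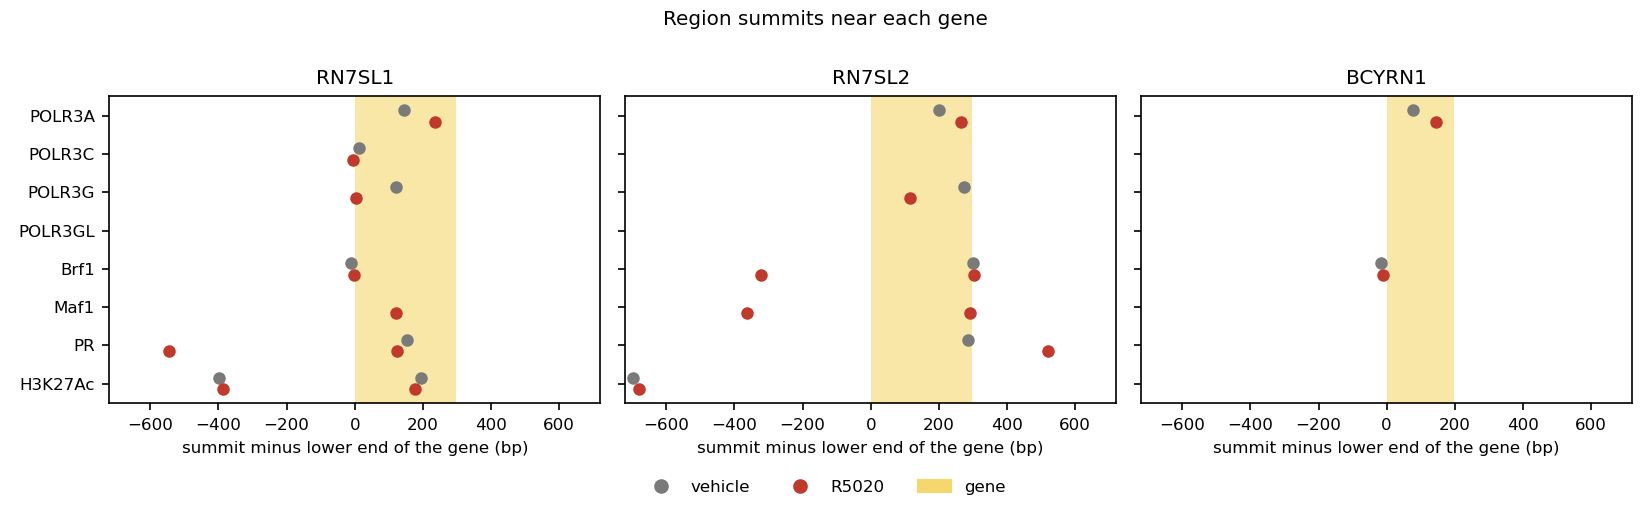
Summits of regions near each gene by antibody (rows), as distance in bp from the gene's lower end (x axis), with vehicle in grey and R5020 in red and the gene shaded. For the Brf1 region over each gene the summit sits at the lower end of RN7SL1 and BCYRN1 and at the higher end of RN7SL2, within 16 bp, while POLR3A summits lie inside the gene and a weaker R5020 Brf1 region beside RN7SL2 has its summit at -322 bp.

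Of the other polymerase subunits, POLR3G was listed at both 7SL genes, POLR3C at RN7SL1 and POLR3GL at none of the 3 genes. POLR3G, a subunit for which the genome also encodes the paralog POLR3GL, had a region over both 7SL genes in both treatments and none within 5 kb of BCYRN1. Over all genes the share was 26.1% with vehicle and 22.4% with R5020, and 31.3% and 27.5% within 5 kb. At RN7SL1 the POLR3G fold was 8.77 with vehicle and 8.54 with R5020, which ranked 53 of 58424 and 65 of 46875 regions. RN7SL2 had folds of 6.28 (rank 153) and 7.93 (rank 77). These wide regions of 1335 to 2177 bp were joined within 5 kb by 3 to 6 weaker ones with folds of 2.28 to 3.69. POLR3G was found at 216 of 422 tRNA genes with vehicle and at 203 with R5020. High POLR3G ranks were common among tRNA genes with a region, whose median lay at the 99.8 percentile in both lists.

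POLR3C, a subunit of the subcomplex that takes part in initiation, had a region at RN7SL1 alone, with a fold of 3.64 with vehicle (49586504 to 49586899) and 3.69 with R5020 (49586475 to 49586690). These lay above 55.3% and 59.4% of their lists, and with a fold of at least 5 required POLR3C was found at 0 of the 3 genes in both treatments. The share of all genes was 1.02% with vehicle and 1.09% with R5020 (within 5 kb, 1.52% and 1.6%), and that of tRNA genes 23.5% and 27.7%. The POLR3C summits lay 12 bp inside and 5 bp outside the lower end of RN7SL1, near those of Brf1. POLR3GL had no region within 5 kb of any of the 3 genes in either treatment, against 0.373% and 0.261% of all genes within 200 bp and 0.611% and 0.476% within 5 kb. It was found at 0 of 422 tRNA genes with vehicle and 10 with R5020.

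PR had a region at RN7SL1 and RN7SL2 in both treatments and none within 200 bp of BCYRN1. Not all of these regions passed stricter settings. Vehicle PR was found at 1 gene, RN7SL1, with a −log10 q of at least 5 and at 0 with a fold of at least 5. R5020 PR was found at 1 gene, RN7SL2, with a fold of at least 5 and also with equal numbers of regions in both lists. With vehicle, the share of all genes was 8.24%, and 9 of 422 tRNA genes and 1 of the 19 other polymerase III genes, RNU6-1, had one. These vehicle regions were narrow and low in their list. At RN7SL1 the region covered 167 bp inside the gene, from 49586706 to 49586872, with a fold of 3.72 that exceeded 39% of 6663 regions. At RN7SL2 it spanned 49862810 to 49863027, across the higher end, with a fold of 2.98 that exceeded 12.4%. The summit at RN7SL1 lay 8 bp from the POLR3A summit and that at RN7SL2 84 bp from it.

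With R5020, 47.3% of all genes, with spans of any length, had a PR region within 200 bp, and 2 of 3 genes is near that share. PR was found at 63.2% of the 19 other polymerase III genes, 25.4% of tRNA genes and 4.8% of 687 7SL and BC200 relatives. Gene lengths were not matched in these shares. The regions differed in size between the 7SL genes. RN7SL1 lay under a region of 597 bp, from 49586508 to 49587104, with a fold of 4.97, above 39.6% of the list's 173129 regions. RN7SL2 lay under a region of 1946 bp, from 49861618 to 49863563, with a fold of 33, above 95.5% of the list. Of 107 tRNA genes with R5020 PR, 98 had a lower fold than RN7SL2 and 43 a lower fold than RN7SL1. The summit of the RN7SL2 region lay 222 bp beyond the gene's higher end, 235 bp from the vehicle PR summit. At RN7SL1 the R5020 summit stayed inside the gene, 29 bp from the vehicle one.

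The surroundings of RN7SL2 held more R5020 PR of high fold. A region from 49863808 to 49864595, 959 bp from the gene, had a fold of 40.2, above 97.6% of the list. A further one from 49867837 to 49868819 had a fold of 28.8 and covered the whole LOC105378179 promoter window printed above. The surroundings of RN7SL1 held 3 more R5020 PR regions, with folds of 3.65, 7.43 and 8.97. Near BCYRN1 a single R5020 PR region lay 4543 bp away, from 47340057 to 47340415, with a fold of 11.1. A PR region within 5 kb was found at 65.8% of all genes with R5020 and at 11.1% with vehicle. With vehicle the 7SL genes had no PR region within 5 kb other than the one at the gene, and BCYRN1 had none.

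**Figure D4:**
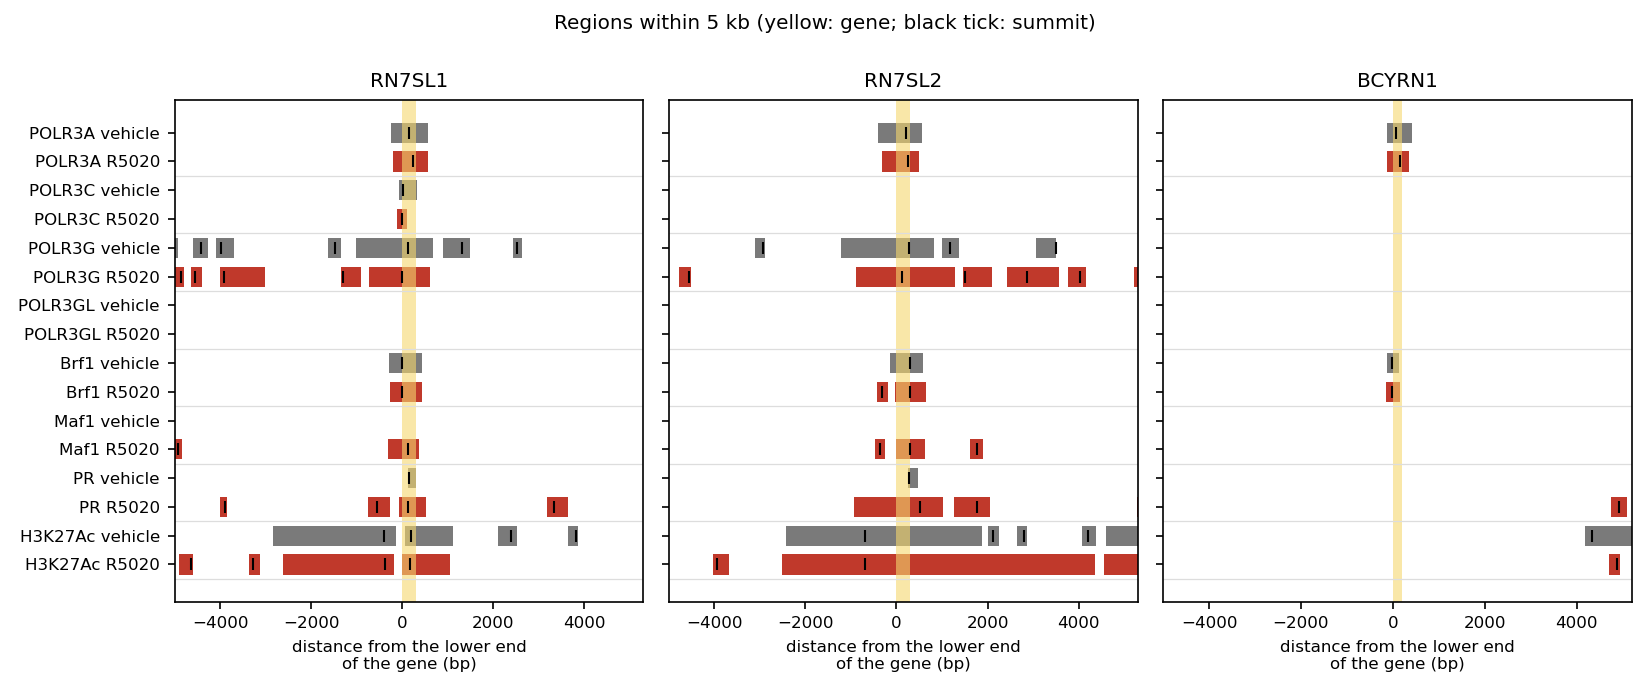
Regions within 5 kb of each gene in the 16 lists (rows), as distance in bp from the gene's lower end (x axis), with vehicle in grey, R5020 in red, black ticks for summits and the gene in yellow. POLR3A and Brf1 have regions in both treatments at each gene, Maf1 with R5020 alone at the 7SL genes, and the surroundings of BCYRN1 are nearly empty.

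Maf1 was absent within 5 kb of all 3 genes in the vehicle list and present at both 7SL genes in the R5020 list. The vehicle list held 3049 regions and the R5020 list 22683. When both lists were reduced to equal numbers of regions of highest −log10 q, R5020 Maf1 was found at 0 of the 3 genes, and with a fold of at least 5 at 1, RN7SL1. The share of all genes with a Maf1 region within 200 bp was 4.75% with vehicle and 21.1% with R5020, and within 5 kb 7.03% and 27.7%. At RN7SL1 the R5020 region spanned 49586273 to 49586942 with a fold of 6.38, above 80.1% of 22683 regions. Only 5 of 94 tRNA genes with R5020 Maf1 had a fold as high. At RN7SL2 the region spanned 49862541 to 49863172 with a fold of 4.44, above 53.9% of the list. The Maf1 summit was 120 bp from the lower end of RN7SL1, inside the gene, and 4 bp from the PR summit of the same treatment. At RN7SL2 it was inside the gene, 8 bp from the higher end and 230 bp from the PR summit. Further Maf1 regions near RN7SL2 lay 252 bp away (fold 4.3) and 1323 bp away (fold 6.17). The summit of the latter was at 49864313 and that of the PR region of fold 40.2 at 49864311. How often Maf1 and PR summits lay this close over the whole R5020 lists was not counted. A Maf1 region of fold 3.18 lay 4826 bp from RN7SL1. BCYRN1 had no Maf1 region within 5 kb in either list.

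H3K27Ac marked the chromatin of both 7SL genes in both treatments and was absent within 200 bp of BCYRN1. The background share was 39.3% of all genes with vehicle and 40.3% with R5020, and 47.2% and 48.6% within 5 kb. RN7SL2 lay inside 1 broad region, of 4286 bp with vehicle (fold 14.8, above 95% of the list) and of 6862 bp with R5020 (fold 15, above 94.8%). RN7SL1 lay at a break between neighbouring regions. Those below the gene had folds of 12.9 with vehicle and 10.1 with R5020, and those over the gene 5.54 and 8.17. The break was 203 bp wide with vehicle, from 49586444 to 49586646, and held the Brf1 summit. With R5020 it was 166 bp wide, from 49586410 to 49586575, and the Brf1 summit lay 4 bp beyond it. The nearest H3K27Ac to BCYRN1 was 3980 bp away with vehicle (fold 3.86) and 4506 bp away with R5020 (fold 2.74).

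The 200 bp limit divided regions beside the 7SL genes without deciding any presence. Just inside it were the lower H3K27Ac regions of RN7SL1, 137 bp away with vehicle and 171 bp with R5020, and the weaker R5020 Brf1 region of RN7SL2, 186 bp away. Just outside were the R5020 Maf1 region 252 bp from RN7SL2 and an R5020 PR region 261 bp from RN7SL1. Each of these genes also had a region of the same antibody over the gene itself.

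The host promoters were then examined for the same antibodies. The LOC105378179 window overlapped Maf1 regions with vehicle (fold 5.17) and R5020 (fold 7.41), PR with R5020 alone (fold 28.8), and H3K27Ac and POLR3G in both treatments. The RPS29 window overlapped PR with vehicle (fold 2.43) and R5020 (fold 19.6) and Maf1 with R5020 alone (fold 4.78). It also overlapped H3K27Ac, with folds of 14.6 with vehicle and 27.1 with R5020, and POLR3G, with folds of 3.49 and 3.59. The RPS29 window holds the lower end of the protein-coding gene LRR1 as well, at 49598940, so these regions cannot be assigned to RPS29 alone. The EPCAM-DT window overlapped H3K27Ac in both treatments, with folds of 5.66 and 4.99, and no other antibody's region. None of the 3 windows overlapped POLR3A, POLR3C, POLR3GL or Brf1.

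Presence over the 16 lists was 13 for RN7SL1, 11 for RN7SL2 and 4 for BCYRN1. The pattern was then compared with 666 RefSeq genes that had POLR3A in both treatments and did not share a region with the 3. Likeness was the number of lists with the same presence within 200 bp, with ties settled by the mean absolute difference of fold percentiles. RN7SL1 was matched in 16 of 16 lists by 5 genes, of which TRQ-TTG1-1 was nearest with a mean difference of 9.91 percentage points, then TRC-GCA2-4 with 13 and TRIM55 with 13.4. RN7SL2 was matched in 16 lists by 2 genes, TRN-GTT2-7 (9 points) and ELF1 (13.1 points), and next by VAC14 in 15 lists (7.28 points). BCYRN1 was matched in 16 lists by 77 genes, led by TRY-GTA5-4 (1.5 points), TRG-CCC1-1 (1.89 points) and TRQ-TTG2-1 (2.38 points). TRIM55, ELF1 and VAC14 are long protein-coding spans, so their regions need not lie at 1 place. Their POLR3A folds with vehicle and R5020 were 20.7 and 39 (TRIM55), 57.8 and 69.8 (ELF1), and 36.4 and 53 (VAC14). The tRNA genes TRA-AGC8-2, TRE-TTC1-2 and TRG-GCC2-4, in this order, had the same folds after rounding. The POLR3A regions counted for these spans may thus be those of tRNA genes, which was not tested.

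**Figure D5:**
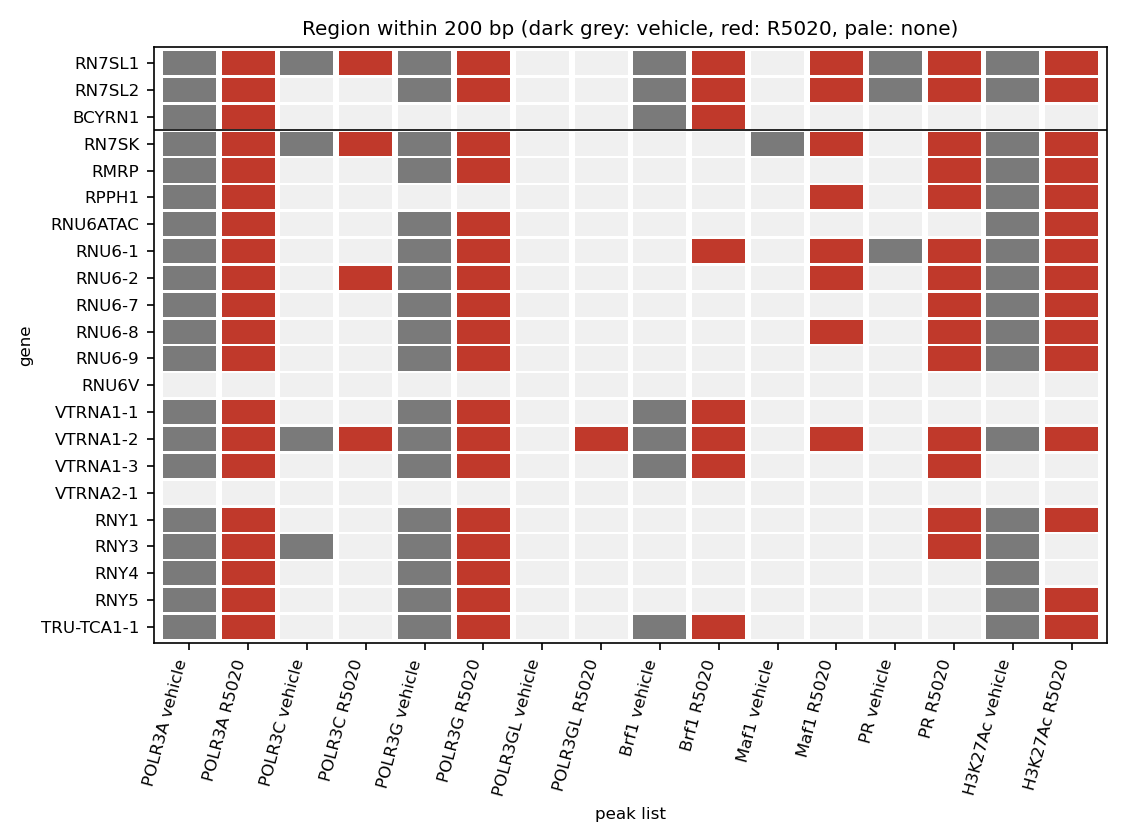
Presence of a region within 200 bp of RN7SL1, RN7SL2, BCYRN1 and 19 other polymerase III genes (rows) in the 16 lists (columns), dark grey for vehicle, red for R5020 and pale for none. RN7SL1 and VTRNA1-2 have regions in 13 lists and RN7SK and RN7SL2 in 11, and BCYRN1 in 4.

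PR and Maf1 at the 19 other polymerase III genes give the same lists a scale. PR was found at 1 with vehicle and 12 with R5020, with R5020 folds of 6.18 to 38.4, and Maf1 at 1 and 6. The Maf1 gene with vehicle was RN7SK, which encodes an inhibitor RNA of transcription elongation. RN7SL1 had a lower R5020 PR fold than any of the 12, and a higher R5020 Maf1 fold than any of the 6, whose highest was 5.67.

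Of genes for the protein partners of these RNAs, 13 were listed. SRP9 and SRP14 bind the Alu part of 7SL and also bind BC200, SRP19, SRP54, SRP68 and SRP72 complete the particle, and SRPRA and SRPRB form its receptor. PABPC1, SYNCRIP, PCBP1, PCBP2 and SSB are RNA-binding proteins that associate with BC200 or with new polymerase III transcripts. Regions within 200 bp of either end of the gene were counted. POLR3A was found at 0 of the 13 in both treatments, against 0.295% of protein-coding genes with vehicle and 0.23% with R5020. POLR3C was also found at 0, against 1.27% and 1.32%, as were POLR3GL, against 0.17% and 0.1%, and Brf1, against 0.23% and 0.726%. Maf1 was found at 3 with vehicle and 11 with R5020, against 6.71% and 29% of protein-coding genes. PR was found at 5 and 12, against 10.3% and 47%. H3K27Ac was listed at 12 in each treatment, the one without being SRPRB in both, against 64.1% and 64.6%. POLR3G was found at 9 and 10, against 42.2% and 34.6%. The shares over protein-coding genes were not matched for H3K27Ac. Whether Maf1, PR and POLR3G were more frequent at the 13 than at other acetylated genes was not tested. The highest R5020 PR folds among the 13 were 42.4 at SRP72, 15.6 at SRP68 and 13.6 at PCBP1. SRP9 had a fold of 5.12, SRP14 7.29 and SRP54 5.5 in that list. SRPRB was the gene without an R5020 PR region.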

How the data were processed

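The labels list 54 libraries in 18 groups of 3, of which 6 are inputs, and samples were grouped by title. The 16 deposited files are narrowPeak lists without header, 1 per antibody and treatment. Per the submitters' processing notes, cutadapt, Bowtie2 and MACS2 and the build hg38 were used. Versions, settings, controls and the way replicates were combined are not given in the sources used here. The authors deposited for each region a fold enrichment ratio, the −log10 of its q-value, and the summit offset in bp. These are the authors' values and served only to describe, rank or filter regions within a list.

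Only regions on the autosomes and on X and Y were used. Gene spans and promoters came from RefSeq tables of GRCh38.p14. Genes that start within 100 kb of a chromosome's beginning were left out. A fold percentile is the share of a list's regions with a lower fold. Where several regions lay within 200 bp, the one over the gene, then the highest fold, stood for it. No test was possible with 1 list per group. The 95% Wilson intervals cover counting error only. The members, gene lists, motifs and the naming rule (the 3 genes with all regions within 5 kb, listed genes, the 5 relatives of highest vehicle POLR3A fold and the 3 genes most alike) were chosen with earlier results of these data known. The distance search was tested on simulated data. The tools were matplotlib 3.10.9, scipy 1.17.1, numpy 2.4.6 and Python 3.11.15. Alternatives were a minimum fold of 5, a minimum −log10 q of 5, overlap or 5 kb in place of 200 bp, 1 kb for partner genes, ranks by −log10 q and equal numbers of regions.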

Additional observations from a re-analysis of the deposited data

How the results depend on the processing

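For POLR3A, Brf1, POLR3G, POLR3GL and H3K27Ac, the number of the 3 genes with a region within 200 bp stayed within 1.5 times under all 5 alternatives in both treatments. With a fold of at least 5 the number was 0 for vehicle POLR3C, 0 for R5020 POLR3C, 1 for R5020 Maf1 (RN7SL1), 0 for vehicle PR and 1 for R5020 PR (RN7SL2). With a −log10 q of at least 5 vehicle PR was found at 1 gene, RN7SL1. With equal numbers of regions of highest −log10 q in each pair of lists, R5020 Maf1 was found at 0 and R5020 PR at 1, RN7SL2. Overlap or 5 kb in place of 200 bp moved none of the 16 numbers by more than 1.5 times, a limit that a change from 2 to 3 genes does not exceed. With 5 kb BCYRN1 was added for R5020 PR and for H3K27Ac in both treatments, which made 3 genes. Ranking by −log10 q moved 21 of 28 fold percentiles beyond their intervals, and ranking among regions of −log10 q of at least 5 moved 20 of 27, by the construction of a smaller list. The cause of the other moves was not tested. A distance of 1 kb moved 0 of 16 partner gene numbers by that much.

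No paired analysis was possible because each list stands for 3 replicate libraries and carries no replicate number. For the same reason leaving out a library was not run. Depth is unknown, so an absent region, as at BCYRN1 for PR, means only that none was listed.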

Other observations

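The gene table lists 687 relatives of the 7SL and BC200 genes, nearly all pseudogenes. POLR3A was found at 4 of them, the same 4 in both treatments, or 0.582% (95% Wilson interval 0.227 to 1.49), against 1.23% of all genes with vehicle and 1.31% with R5020. All genes include the tRNA genes and long spans, and gene lengths were not matched, so these shares do not show a depletion at the relatives. RN7SL3, a further 7SL copy 8.64 kb from RN7SL2, had POLR3A folds of 15.6 with vehicle and 17.7 with R5020 and Brf1 folds of 5.56 and 10.8. It had PR (fold 20.8) and Maf1 (fold 5.2) in the R5020 lists alone, H3K27Ac and POLR3G in both treatments, and regions in 10 of 16 lists. RN7SL5P, on chromosome 9, had POLR3A folds of 37.2 and 47.9, higher than those of RN7SL2 in both lists, with Brf1 only after R5020 (fold 6.11) and no region of another antibody. RN7SL4P, on chromosome 3, had POLR3A folds of 18.4 and 32.9 and no other region. BCYRN1P1, a BC200 pseudogene on chromosome X, had POLR3A folds of 5.67 and 6.23 and no other region. None of the 4 lay within 1 kb of a tRNA gene. Since these copies resemble RN7SL1, RN7SL2 or BCYRN1 in sequence and the placing of shared reads is not given in the sources used here, how much of this signal belongs to each copy was not tested.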
